A study of Mus musculus with 5 samples.

Results

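The genes described here encode splicing factors and related RNA-binding proteins, measured in lungs of bleomycin-treated mice. They were chosen by symbol from the platform's gene table, which holds 123 symbols of 8 groups: the snRNP proteins (Snrp), the SF3 subunits, the Prpf factors, the SR proteins (Srsf), the hnRNPs, the DEAD-box and DEAH-box helicases (Ddx and Dhx) and the RNA-binding motif genes (Rbm). Of these, 98 had at least 1 feature with values on 4 or more of the 5 arrays, out of 9039 named genes kept, and 25 did not. Each array was a 2-colour array that set amplified lung RNA of 1 bleomycin-treated mouse against 1 shared pool of amplified lung RNA from untreated control mice. All mice were of the inbred strain 129svJ, and the 5 treated mice form the only group. Bleomycin is an antitumour antibiotic that breaks DNA and serves in rodents as a model of lung injury followed by scarring. No source used here gives the age or sex of the mice, the dose, route and time of treatment, or how many mice made up the pool. The samples are whole lung, so fewer cells of a type and less RNA per cell cannot be told apart. A ratio holds no level, so the labelled tissue could not be checked by how strongly lung markers were expressed. Values were kept for 17 of 19 marker genes of alveolar and club cells and for 15 of 19 of skeletal muscle. Having values is therefore no check of the tissue either.

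Introns are removed from pre-mRNA by the spliceosome, which is built on each transcript from small nuclear ribonucleoproteins (snRNPs). The U1 and U2 snRNPs recognise the start of the intron and the branch point, and the tri-snRNP then brings in the catalytic centre. SR proteins mostly promote the use of an exon, hnRNPs often oppose it or package the transcript, and ATP-driven helicases rearrange the RNA at each step. Many of these proteins also act in export, translation and decay of mRNA, and nearly all cells of the lung make them.

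The comparison of treated lung with the control pool asks which of these genes differ in RNA between injured and control lung. Values are centred log2 ratios of an array, and a mean is given with its SD over the mice. Which way the ratio runs is unsettled, because the titles name the treated mouse first but no source gives the dyes, and genes of macrophages and dividing cells lay mostly below 0. Only the side of 0 is therefore given, without saying whether mouse or pool held more RNA. The log base is not named either and was taken as 2; with natural logarithms the largest fold among the 98 genes, 2.81 for Hnrnpk, would read 4.44. A gene is called past the threshold at a Benjamini-Hochberg adjusted p under 0.05 from limma, adjusted over all 10081 genes and unnamed features tested.

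Splicing factor genes lay on both sides of 0. The median size of their means, whatever the side, was 0.22, near the 0.21 of all genes tested. Past the threshold were 50 of the 98, or 51% against 49.7% of all genes tested, so their share was near the background. Of these, 32 lay above 0 (32.7% against a background of 25.6%) and 18 below 0 (18.4% against 24.1%). By group, against the same 49.7%, the share past the threshold was 85.7% for snRNP proteins, 66.7% for hnRNPs, 55.6% for Prpf factors, 50.0% for SR proteins, 47.6% for Ddx, 42.9% for SF3, 40.0% for Rbm and 36.4% for Dhx genes, each over 7 to 21 genes. The median of the 98 means was 0.056, and over all genes tested it was −0.0092. Past the threshold with at least a 2-fold difference were 5 of the 98, against 5.59% of all genes (3.22% above 0 and 2.37% below 0). The hnRNP genes Hnrnpk, Hnrnph2 and Hnrnpf and the helicase gene Ddx17 lay above 0, and Rbm39 below 0. Among the 50 genes past the threshold, 49 had every measured array on 1 side, which passing the test nearly requires. The exception was Dhx9. Of all 98 genes, passed or not, 37 had every measured array above 0 and 22 every measured array below 0. Of all genes tested, 29.1% and 28.3% did. The 1 pool was shared by all arrays, so its own chance departure counts as a difference here. A stricter test, called the wider-error test here, gives the pool the error of 1 further mouse. It left 5 of the 98, against 4.95% of all genes (2.87% above 0 and 2.08% below 0). They were Hnrnpf, Hnrnpul1, Prpf8, Rbm18 and Ddx50, all above 0.

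**Figure D1:**
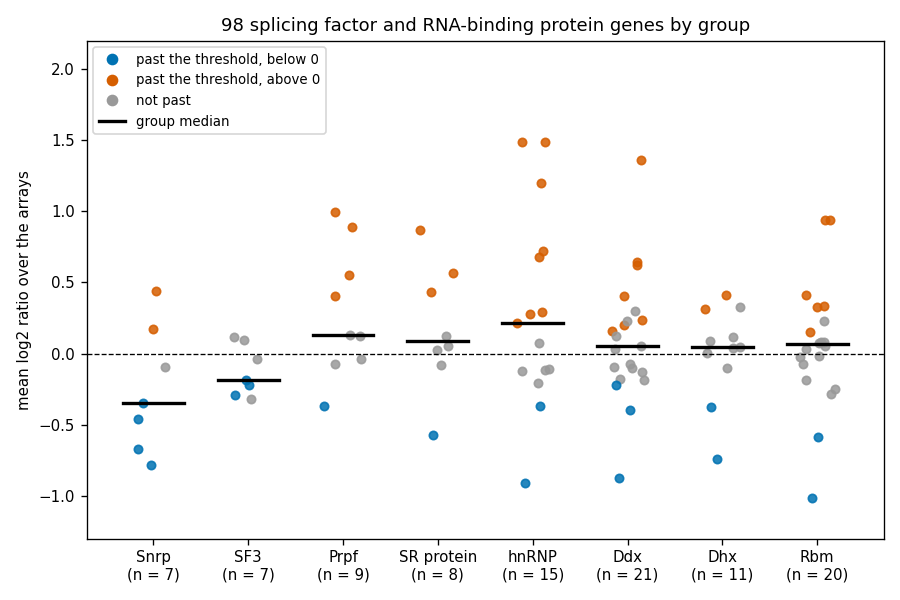
Mean log2 ratio over the arrays (vertical axis) of each of the 98 genes, in 8 groups on the horizontal axis with the number of genes in each; bars are group medians and colours give the call. The snRNP and SF3 groups have medians of −0.35 and −0.19, and the hnRNP group has the highest median, 0.22.

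Upstream sequence is shown for leading genes of either side, namely the 2 farthest from 0 on each side whose window overlapped no annotated gene, to set promoters of genes with opposite ratios next to each other. Each window holds the 250 bases before the most upstream start that RefSeq lists (assembly GRCm38.p6), 5′ to 3′ on the gene's strand. Capitals mark matches, on either strand, to the motifs named afterwards. Prpf8 (chr11:75486527-75486776, plus strand) and Hnrnpf (chr6:117900090-117900339, plus strand) lay above 0, and Snrpg (chr6:86371290-86371539, plus strand) and Rbm39 (chr2:156180239-156180488, minus strand) below 0.
Prpf8: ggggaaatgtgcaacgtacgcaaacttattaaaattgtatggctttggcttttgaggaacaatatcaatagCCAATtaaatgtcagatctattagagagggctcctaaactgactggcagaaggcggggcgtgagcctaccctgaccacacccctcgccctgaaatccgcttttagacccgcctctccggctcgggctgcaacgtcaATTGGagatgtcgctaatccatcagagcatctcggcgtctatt
Hnrnpf: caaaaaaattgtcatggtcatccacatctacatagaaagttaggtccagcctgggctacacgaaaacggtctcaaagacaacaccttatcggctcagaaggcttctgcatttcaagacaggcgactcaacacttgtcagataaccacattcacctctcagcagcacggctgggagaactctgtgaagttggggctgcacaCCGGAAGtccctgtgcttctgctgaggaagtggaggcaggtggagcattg
Snrpg: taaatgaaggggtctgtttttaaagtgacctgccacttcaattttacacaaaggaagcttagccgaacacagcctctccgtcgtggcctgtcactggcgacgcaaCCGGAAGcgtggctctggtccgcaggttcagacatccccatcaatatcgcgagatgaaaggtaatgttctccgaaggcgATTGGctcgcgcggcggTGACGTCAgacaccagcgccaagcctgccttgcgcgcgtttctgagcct
Rbm39: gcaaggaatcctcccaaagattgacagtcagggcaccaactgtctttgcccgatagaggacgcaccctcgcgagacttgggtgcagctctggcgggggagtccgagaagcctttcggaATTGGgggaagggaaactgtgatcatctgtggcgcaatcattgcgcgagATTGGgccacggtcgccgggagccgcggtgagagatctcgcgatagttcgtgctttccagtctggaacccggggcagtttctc

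The letters searched, on both strands, were CCGGAAG (the core bound by ETS factors), GGGCGG (the Sp1 box), CCAAT, GCATGCGC (an NRF1 core), TATAAA (the TATA box), CACGTG (an E-box) and TGACGTCA (the cyclic AMP response element, CRE); none contains another. Windows were found for 86 of the 98 genes and for 7189 of the genes tested. The ETS core occurred in 26 of the 86 windows (30.2%), against 11.8% of the genes tested and 7.07% of all 27025 promoters in the RefSeq table. CCAAT occurred in 43 of them (50.0%, against 36.3% and 34.5%) and GGGCGG in 52 (60.5%, against 53.8% and 33.0%). In the windows of genes past the threshold above 0, CCAAT stood in 20 of 30 and the ETS core in 6, and in those below 0 CCAAT stood in 5 of 14 and the ETS core in 6. In the 42 windows of genes that did not pass, CCAAT stood in 18 and the ETS core in 14. The CRE was found in 4 of the 86 windows (4.65%, against 2.66% of the genes tested). These were 3 of the 14 below 0, 0 of the 30 above 0 and 1 of the 42. Differences between the sides were not tested. Snrpg carries the CRE with an ETS core and a CCAAT box, whereas Prpf8 and Rbm39 hold 2 CCAAT boxes each and Hnrnpf 1 ETS core. TATAAA was found in 5 windows (5.81%, against 8.51% of the genes tested), CACGTG in 9 (10.5% against 8.14%) and GCATGCGC in 2 (2.33% against 4.08%). A match is a description of letters and shows no binding.

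Of the snRNP protein genes, 7 of 10 were measured, and 4 passed below 0, 2 above 0 and 1 on neither side. The shares were 57.1% below 0 and 28.6% above 0, against 24.1% and 25.6% of all genes. Snrpg and Snrpd2 encode subunits of the Sm ring, the protein ring that holds the RNA of most spliceosomal snRNPs. Snrpg stood at −0.98, −0.56, −0.78 and −0.81 in mice 2, 3, 4 and 5, a mean of −0.78 ± 0.17 (n = 4 arrays; adjusted p = 0.000673). Snrpd2 stood at −0.76, −0.43, −0.66, −0.46 and −1.03 in mice 1 to 5 (−0.67 ± 0.24, n = 5; adjusted p = 0.00128). All measured mice were below 0 for both genes. The U1 protein gene Snrpa stood at −0.24, −0.59, −0.51, −0.56 and −0.40 in mice 1 to 5 (−0.46 ± 0.14; adjusted p = 0.00136), below 0 in every mouse and nearest to it in mouse 1. Snrpa1 and Snrpb2 encode a pair of partner proteins of the U2 snRNP, and they lay on opposite sides. Snrpa1 averaged −0.35 ± 0.15 (adjusted p = 0.00498), below 0 in all 5 mice. Snrpb2 stood at 0.59, 0.64, 0.41, 0.47 and 0.091 in mice 1 to 5 (0.44 ± 0.22; adjusted p = 0.00511), above 0 in all 5 mice and nearest to 0 in mouse 5.

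The Sm genes Snrpb and Snrpn encode near-identical proteins, and shared signal between their features was not tested. Snrpb averaged −0.094 ± 0.12 and did not pass (adjusted p = 0.219). Snrpn, which is imprinted and shares its transcript with Snurf, averaged 0.18 ± 0.096 (adjusted p = 0.0327), with the mice between 0.078 and 0.28. Its call was lost without mouse 1, 3 or 5 (adjusted p = 0.0804, 0.0988 and 0.0793) and when features on 3 arrays were admitted (adjusted p = 0.24, mean 0.094). That further Snrpn feature had a mean of −0.10 on 3 arrays. Without mouse 1, 3 or 5 the snRNP genes past the threshold above 0 numbered 1 in place of 2. Snrpd1 and Snrpe, also Sm genes, had values on only 3 arrays and were not tested; Snrpd1 stood at −0.65, −1.24 and −0.92 in mice 1, 4 and 5, and Snrpe at −0.57, −0.34 and −0.67 in mice 1, 2 and 3.

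The SF3 subunits are the part of the U2 snRNP that grips the branch point. Of 7 measured genes of 8, 3 passed below 0 and 0 above 0 (42.9% and 0%, against 24.1% and 25.6% of all genes). The median of the 7 was −0.19. Sf3a1 stood at −0.31, −0.13, −0.46, −0.43 and −0.14 in mice 1 to 5 (−0.29 ± 0.16; adjusted p = 0.0117), and Sf3b5 at −0.32, −0.13, −0.17, −0.17 and −0.15 in mice 1 to 5 (−0.19 ± 0.078; adjusted p = 0.0203). Each was below 0 in all 5 mice, with differences of only 1.22-fold and 1.14-fold. Sf3a1 was averaged over 2 features, of which 1 passed alone (adjusted p = 0.0108) and the other did not (adjusted p = 0.12). The feature that did not pass lay above 0 in mouse 2 (0.046) and had no value in mouse 3. Sf3b3 averaged −0.22 ± 0.14 (adjusted p = 0.0279) and lost its call without mouse 1, 3 or 4 (adjusted p = 0.0692, 0.0835 and 0.0728). It was lost with 1 feature per symbol too, since neither of its 2 features passed alone (adjusted p = 0.0607 and 0.0654). Sf3b6, a protein at the branch point, had 1 mouse far from the rest: it stood at −0.18, −0.14, −0.054, −0.14 and −1.10 in mice 1 to 5 and did not pass (adjusted p = 0.121), with a mean of −0.13 without mouse 5. Sf3b1, the largest SF3 subunit, had values on 3 arrays only and was not tested.

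Among the Prpf genes, factors first found through yeast splicing mutants, 9 of 10 were measured, and 4 passed above 0, 1 below 0 and 4 on neither side. The shares were 44.4% above 0 and 11.1% below 0, against 25.6% and 24.1% of all genes. Prpf8 encodes the large scaffold protein at the catalytic centre. It stood at 1.25, 0.93, 0.87, 0.98 and 0.95 in mice 1 to 5, a mean of 0.99 ± 0.15 (n = 5; a 1.99-fold difference; adjusted p = 6.60e-05), and it also passed the wider-error test (adjusted p = 0.0225). All 5 mice were above 0, mouse 1 being the highest. Prpf18, a factor of the second splicing step, stood at 0.95, 0.79, 1.11, 1.02 and 0.59 in mice 1 to 5 (0.89 ± 0.21; adjusted p = 0.000224). Prpf38b, related to a factor that activates the spliceosome, stood at 0.72, 0.62, 0.51, 0.47 and 0.42 in mice 1 to 5 (0.55 ± 0.12; adjusted p = 0.000466). Prpf40b, a relative of a U1 factor, averaged 0.40 ± 0.14 (adjusted p = 0.0025). These 3 genes lay above 0 in every mouse. The kinase gene Prpf4b, whose product phosphorylates splicing proteins, was the 1 member of the group past the threshold below 0, at −0.18, −0.15, −0.35, −0.56 and −0.60 in mice 1 to 5 (−0.37 ± 0.21; adjusted p = 0.00948). Prpf19, a ubiquitin ligase of the spliceosome, divided the mice: it stood at −0.19, −0.37, 0.34, 0.44 and 0.39 in mice 1 to 5 and did not pass (adjusted p = 0.463). Of 5 measured Prpf and helicase genes listed for the tri-snRNP, only Prpf8 passed (20%, against 49.7% of all genes). Prpf4 stood at 0.13, Prpf6 at −0.039, Prpf31 at −0.073 and the helicase gene Ddx23 at −0.095 (adjusted p from 0.15 to 0.562 for these 4). That list held no genes of the Sm ring or of the Lsm ring on U6 snRNA, some of which passed below 0.

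Of the SR protein genes, 8 of 9 were measured, and 3 passed above 0, 1 below 0 and 4 on neither side. The shares were 37.5% above 0 and 12.5% below 0, against 25.6% and 24.1% of all genes. Srsf5 stood at 0.68, 0.75, 0.81, 1.43 and 0.69 in mice 1 to 5 (0.87 ± 0.32; a 1.83-fold difference; adjusted p = 0.00103), all above 0 and with mouse 4 well above the other mice. Srsf10, whose product represses splicing when dephosphorylated, stood at 0.89, 0.47, 0.80, 0.45 and 0.23 in mice 1 to 5 (0.57 ± 0.27; adjusted p = 0.00366). Srsf1, the prototype SR protein, averaged 0.43 ± 0.13 (adjusted p = 0.00147) over 2 features that gave nearly the same mean, 0.39 and 0.47. Srsf9 was on the other side, at −0.26, −0.36, −0.74, −0.73 and −0.77 in mice 1 to 5 (−0.57 ± 0.24; adjusted p = 0.00248), nearer to 0 in mice 1 and 2 than in the other mice. Srsf3 averaged 0.052 ± 0.16 and did not pass (adjusted p = 0.565), and Srsf2, Srsf6 and Srsf11 did not pass either, with means from −0.079 to 0.12. Srsf6 passed above 0 without mouse 1, at 0.21 (adjusted p = 0.0359).

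The gene farthest from 0 among the 98, Hnrnpk, was an hnRNP gene. Of 15 measured genes of 18, 8 passed above 0 and 2 below 0 (53.3% and 13.3%, against 25.6% and 24.1% of all genes). Hnrnpk, whose KH domains bind C-rich RNA and DNA, stood at 1.05, 1.07, 1.32, 2.37 and 1.64 in mice 1 to 5, a mean of 1.49 ± 0.55 (n = 5; a 2.81-fold difference; adjusted p = 0.000863). Hnrnph2, which binds G-rich RNA, stood at 0.85, 1.61, 1.52, 2.24 and 1.21 in mice 1 to 5 (1.49 ± 0.52; 2.8-fold; adjusted p = 0.000706). For both genes every mouse was above 0 and mouse 4 the highest. Hnrnpf, a close relative of Hnrnph2, stood at 0.99, 1.49, 1.18, 1.28 and 1.07 in mice 1 to 5 (1.2 ± 0.20; 2.3-fold; adjusted p = 6.43e-05), with a much smaller spread, and passed the wider-error test (adjusted p = 0.0222). In that test Hnrnpk and Hnrnph2 did not pass (adjusted p = 0.126 and 0.112).

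Smaller positive ratios were measured for Hnrnpul1, an hnRNP U-like protein, at 0.69, 0.57, 0.66, 0.93 and 0.77 in mice 1 to 5 (0.72 ± 0.13; adjusted p = 0.000182), and for Hnrnpl, which binds CA repeats, at 0.68 ± 0.26 (adjusted p = 0.00143). Hnrnpul1 passed the wider-error test too (adjusted p = 0.0478). Hnrnpdl and Hnrnpr passed above 0 with means of 0.30 and 0.28. Hnrnpdl lost its call without mouse 2 or 3. Below 0 lay Hnrnpd, also called AUF1, which binds AU-rich elements and acts in mRNA decay. It stood at −1.50, −0.92, −0.68, −0.72 and −0.73 in mice 1 to 5 (−0.91 ± 0.34; a 1.88-fold difference; adjusted p = 0.00115), with mouse 1 farthest from 0. Hnrnpd and its relative Hnrnpdl were thus past the threshold on opposite sides. Hnrnpll, a relative of Hnrnpl that acts in lymphocyte splicing, averaged −0.37 ± 0.092 (adjusted p = 0.00158), opposite to its relative. A further Hnrnpll feature, on 3 arrays, lay above 0 in all 3 with a mean of 0.091, and admitting it moved the mean to −0.23 (adjusted p = 0.0238).

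Other core hnRNP genes had means nearer to 0. Hnrnpa1 stood at 0.23, 0.30, 0.17 and 0.18 in mice 1, 2, 3 and 4 (0.22 ± 0.059, n = 4; adjusted p = 0.0218) and lost its call without mouse 1, 2 or 4 (adjusted p = 0.0531, 0.0843 and 0.0522). Hnrnpa2b1 stood at −0.28, 0.14, −0.18, 0.51 and 0.19 in mice 1 to 5, on both sides of 0, and did not pass (adjusted p = 0.599). Hnrnpa3, Hnrnpab, Hnrnpc and Hnrnpm did not pass, with means from −0.21 to −0.11. A further Hnrnpa3 feature, on 3 arrays, had a mean of 0.23, and admitting it turned the mean of Hnrnpa3 above 0. Genes of this family have close relatives and processed pseudogenes, and the part of shared signal between their features was not tested.

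**Figure D2:**
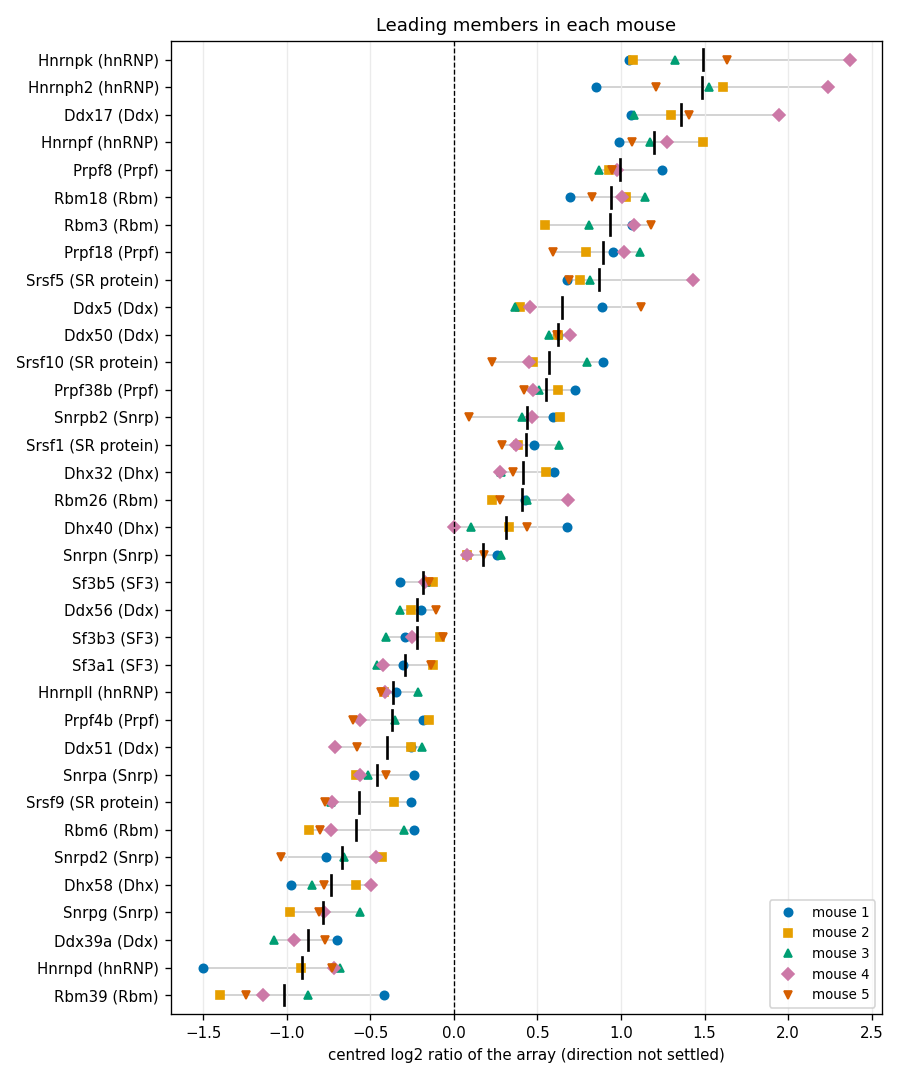
Centred log2 ratio (horizontal axis) in each of the 5 mice for 35 genes past the threshold with every measured array on 1 side. They are the farthest of these from 0 in their group, up to 3 on each side. Symbols are mice, black ticks are means and grey lines span the mice. Mouse 4 is the highest for Hnrnpk, Hnrnph2 and Ddx17, whereas the mice of Ddx50 lie between 0.57 and 0.70.

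The DEAD-box helicases use ATP to open short stretches of RNA and to strip proteins from it. Of 21 measured genes of 27, 7 passed above 0 and 3 below 0 (33.3% and 14.3%, against 25.6% and 24.1% of all genes). Ddx17 stood at 1.06, 1.30, 1.07, 1.95 and 1.41 in mice 1 to 5, a mean of 1.36 ± 0.36 (a 2.56-fold difference; adjusted p = 0.000261), and its close relative Ddx5, with which it acts in splicing and transcription, at 0.89, 0.40, 0.36, 0.46 and 1.12 in mice 1 to 5 (0.64 ± 0.34; adjusted p = 0.00465). Both lay above 0 in all mice, but their order of mice differed, mouse 4 being highest for Ddx17 and mouse 5 for Ddx5. Ddx50, a nucleolar helicase, had the smallest SD of the 50 genes past the threshold, at 0.62, 0.62, 0.57, 0.70 and 0.62 in mice 1 to 5 (0.63 ± 0.045; adjusted p = 9.85e-05). It passed the wider-error test (adjusted p = 0.0303), whereas Ddx17 did not (adjusted p = 0.0612).

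Below 0 was Ddx39a, an export and splicing helicase, at −0.70, −1.07, −0.95 and −0.77 in mice 1, 3, 4 and 5 (−0.88 ± 0.17, n = 4; a 1.83-fold difference; adjusted p = 0.000428). Its near-identical relative Ddx39b, the helicase that helps load the U2 snRNP, averaged −0.075 ± 0.14 and did not pass (adjusted p = 0.361). Ddx51, a factor of ribosome assembly, stood at −0.26, −0.26, −0.19, −0.71 and −0.58 in mice 1 to 5 (−0.40 ± 0.23; adjusted p = 0.00936). Ddx56, also of the nucleolus, averaged −0.22 ± 0.092 (n = 4; adjusted p = 0.028) and lost its call without mouse 1, 2 or 3 (adjusted p = 0.0562, 0.0936 and 0.0974). Among the 10 measured genes of ribosome assembly in the nucleolus (Ddx10, Ddx18, Ddx24, Ddx27, Ddx47, Ddx51, Ddx54, Ddx56, Rbm19 and Rbm28), 2 passed on each side and none differed by more than 1.32-fold. The share of the list was 20% on each side, against 25.6% of all genes above 0 and 24.1% below 0. The nucleolar helicase gene Ddx50, above 0 by 1.54-fold, was not on that list. Of the remaining calls, Ddx28 averaged 0.24 ± 0.12 (adjusted p = 0.015). Ddx10 (0.16 ± 0.089) and Ddx18 (0.20 ± 0.12, n = 4) were the 2 of these 10 past the threshold above 0, and each lost its call whichever single mouse was left out, Ddx18 with adjusted p from 0.0539 to 0.14.

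The DEAH-box helicases drive the late rearrangements of the spliceosome and, in some members, innate sensing of RNA. Of 11 measured genes of 13, 2 passed on each side (18.2% each, against 25.6% of all genes above 0 and 24.1% below 0). Dhx58, also called LGP2, is a cytosolic sensor of viral RNA induced by interferon. It stood at −0.98, −0.58, −0.85, −0.50 and −0.78 in mice 1 to 5 (−0.74 ± 0.20; a 1.67-fold difference; adjusted p = 0.000425), below 0 in every mouse. Dhx9, a helicase of transcription and RNA structure, stood at −0.59, −0.36, −0.35, 0.018 and −0.57 in mice 1 to 5 (−0.37 ± 0.25; adjusted p = 0.0147), with mouse 4 the 1 array above 0, and lost its call without mouse 5 (adjusted p = 0.0511). Above 0 were Dhx32, at 0.41 ± 0.15 (adjusted p = 0.00259), and Dhx40, at 0.67, 0.33, 0.10, 0.0020 and 0.44 in mice 1 to 5 (0.31 ± 0.27; adjusted p = 0.0377). Dhx40 lost its call without mouse 1, 2 or 5 (adjusted p = 0.0821, 0.0933 and 0.11), which left 1 gene above 0. The spliceosome helicases Dhx16, Dhx8 and Dhx15 did not pass, with means of 0.33, 0.0027 and 0.088. Dhx38, another of them, had values on 2 arrays only and was not tested. Dhx16 divided the mice, at 0.55, 0.73, 0.49, −0.14 and 0.0010 in mice 1 to 5 (adjusted p = 0.0792).

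Of the Rbm genes, 20 of 28 were measured, and 6 passed above 0, 2 below 0 and 12 on neither side. The shares were 30% above 0 and 10% below 0, against 25.6% and 24.1% of all genes. Rbm39, a U2AF-like splicing coactivator, was the lowest of all 98 genes, at −0.42, −1.40, −0.88, −1.14 and −1.24 in mice 1 to 5, a mean of −1.02 ± 0.38 (a 2.02-fold difference; adjusted p = 0.00109). All mice were below 0 and mouse 1 was nearest to it. Rbm6, a splicing regulator, stood at −0.24, −0.87, −0.30, −0.73 and −0.80 in mice 1 to 5 (−0.59 ± 0.30; adjusted p = 0.00425), again nearest to 0 in mouse 1. Rbm3, an RNA-binding protein known for its induction by mild cold, stood at 1.07, 0.55, 0.81, 1.08 and 1.18 in mice 1 to 5 (0.94 ± 0.26; a 1.91-fold difference; adjusted p = 0.000368). Rbm18 stood at 0.69, 1.03, 1.15, 1.01 and 0.83 in mice 1 to 5 (0.94 ± 0.18; 1.92-fold; adjusted p = 0.000127) and passed the wider-error test (adjusted p = 0.037). Rbm26 averaged 0.41 ± 0.18 (adjusted p = 0.00393), and Rbm17, a factor of splice site choice, 0.33 ± 0.14 (adjusted p = 0.00553). Every mouse was above 0 for these 4 genes. Rbm14, a coactivator found in paraspeckles, averaged 0.15 ± 0.079 (adjusted p = 0.0452) and lost its call whichever single mouse was left out. Rbm8a, a subunit of the exon junction complex, and Rbmx did not pass, at 0.074 ± 0.11 and 0.030 ± 0.072 (adjusted p = 0.316 and 0.644). The symbol rule also took Rbm46os, an antisense RNA gene and no protein gene, at 0.079 (adjusted p = 0.277).

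For 8 of the 98 genes 2 features were averaged, and the features of several disagreed. Ddx3x, an X-linked helicase of translation, averaged 0.41 ± 0.15 (adjusted p = 0.00251), but 1 feature stood at 1.18, 1.24, 0.96, 0.66 and 0.68 in mice 1 to 5 and the other at −0.17, −0.075, −0.096, −0.18 and −0.14. The features of Ddx3x did not overlap in any mouse, and tested alone they had adjusted p = 0.0004 and 0.0521. Dhx30, a helicase of the mitochondrial ribosome, averaged −0.10 ± 0.15 and did not pass (adjusted p = 0.245). Its features passed on opposite sides when tested alone, with means of 0.23 (adjusted p = 0.0421) and −0.43 (adjusted p = 0.00223). Without mouse 5 the mean of Dhx30 was −0.17 and passed below 0 (adjusted p = 0.0488), and with 1 feature per symbol it passed above 0, at 0.23 (adjusted p = 0.0419). Rbm4b passed through 1 feature, at a mean of 0.52, while its other feature averaged 0.041 on 4 arrays. The means of Dhx30 and Ddx3x thus lie between features that were on different sides of 0.

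**Figure D3:**
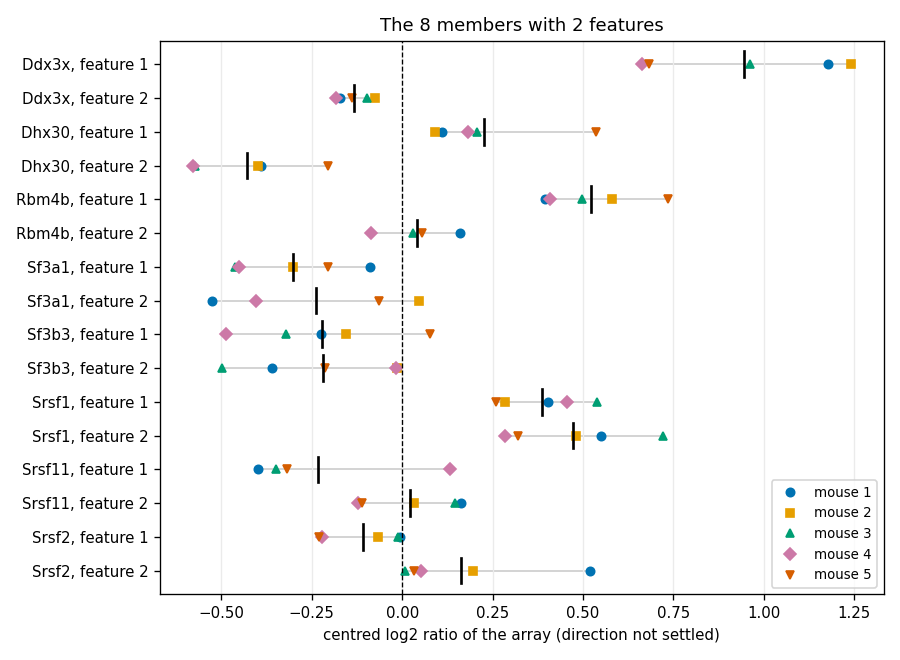
Centred log2 ratio (horizontal axis) in each mouse for the 2 features of the 8 genes that had 2; symbols are mice, black ticks are means. The features of Ddx3x and of Dhx30 lie apart, whereas those of Srsf1 (means 0.39 and 0.47) and Sf3b3 (both −0.22) have means close together.

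Other genes of RNA processing were read from 5 lists, with the 98 genes left out. Of 40 measured further spliceosome genes, 13 passed below 0 and 9 above 0 (32.5% and 22.5%, against 24.1% and 25.6% of all genes). The Lsm proteins, which form a ring on U6 snRNA, were represented below 0 by Lsm4 at −1.47 ± 0.50 (adjusted p = 0.000659), Lsm6 at −0.96 ± 0.25 and Lsm3 at −0.75 ± 0.29. Cwc15, a protein of the catalytic spliceosome, stood at −0.96, −0.76, −0.72, −0.72 and −0.71 in mice 1 to 5 (−0.77 ± 0.11) and passed the wider-error test (adjusted p = 0.0285). On the other side was Syf2, of the same stage, at 0.80 ± 0.33. Of 28 further splicing regulators, 12 passed above 0 and 6 below 0 (42.9% and 21.4%, against 25.6% and 24.1% of all genes). Syncrip, an hnRNP by another name (hnRNP Q), stood at 1.26, 1.26, 1.43, 1.21 and 1.02 in mice 1 to 5 (1.23 ± 0.15; adjusted p = 3.04e-05), beside Rnps1, a coactivator, at 0.80 ± 0.16. Raly, an hnRNP relative, lay below 0 at −0.47 ± 0.083.

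Of 9 measured genes of splicing kinases and their cyclins, 5 passed above 0 (55.6% against 25.6%) and 0 below 0. Clk1, a kinase that phosphorylates SR proteins, stood at 1.92, 1.78, 1.2, 1.66 and 2.05 in mice 1 to 5 (1.72 ± 0.33; a 3.29-fold difference; adjusted p = 7.27e-05), and cyclin L1, Ccnl1, at 0.94 ± 0.29. Without mouse 1, 4 or 5 the kinase list had 3 calls above 0. Of 14 genes of the exon junction, export and nonsense-mediated decay, 9 passed above 0 (64.3% against 25.6%) and 0 below 0. Among them were Eif4a3, the helicase of the exon junction complex, at 0.67 ± 0.17, the export adaptor Alyref at 0.74 ± 0.32 and Smg1 at 2.36. Of 14 genes of 3′ end processing and poly(A) binding, 5 passed above 0 and 1 below 0 (35.7% and 7.14%, against 25.6% and 24.1%), with Pabpc1, the cytosolic poly(A)-binding protein, at 1.40 ± 0.33 and its nuclear counterpart Pabpn1 at −0.64 ± 0.52 (adjusted p = 0.0228). Pabpn1 ranged from −1.21 in mouse 1 to 0.026 in mouse 4; the list had 0 calls below 0 without mouse 3 or 5 and 2 without mouse 1.

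**Figure D4:**
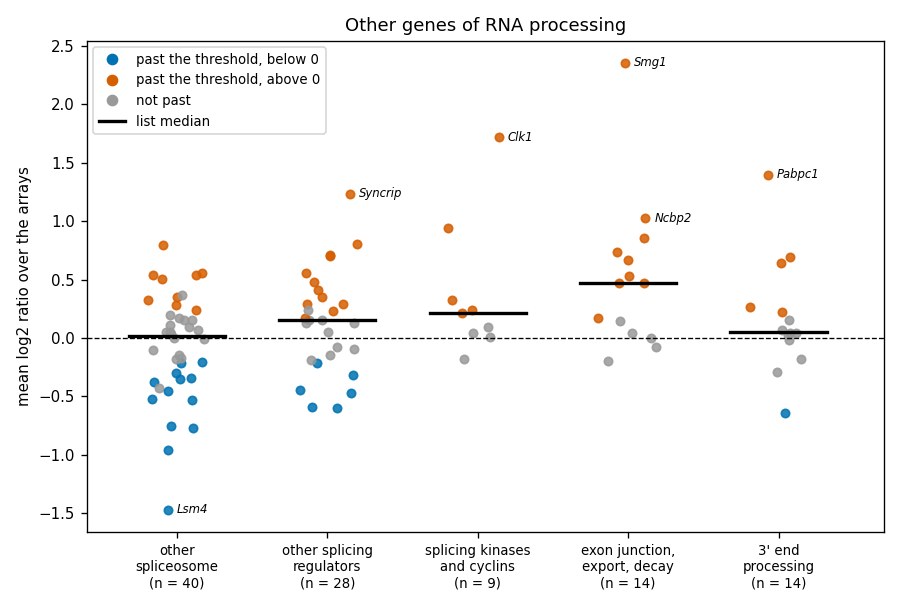
Mean log2 ratio over the arrays (vertical axis) of genes in 5 lists of RNA processing that hold none of the 98 genes; bars are list medians, colours give the call and genes at least 2-fold from 0 are named. Smg1 (2.36) and Clk1 (1.72) are the highest and Lsm4 (−1.47) the lowest.

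The 18 genes past the threshold below 0 had medians of −0.32, −0.36, −0.44, −0.56 and −0.59 in mice 1 to 5 (SD 0.12 between mice, against 0.036 for all genes past the threshold on that side). The 32 above 0 had medians of 0.60, 0.51, 0.47, 0.46 and 0.42 (SD 0.067, against 0.032). These SDs are not like for like, since the medians over all genes are of 2431 genes below 0 and 2577 above 0. Per gene, the median SD over the mice was 0.15 for the 98 genes and 0.16 for all genes tested. By median, the set below 0 was farthest from 0 in mouse 5 and the set above 0 in mouse 1. Gene by gene this did not hold. Mouse 1 was the highest array for 6 of the 32 genes above 0 and the lowest for 10. Mouse 5 was the lowest array for 4 of the 18 genes below 0, as were mice 1, 2 and 3 for 4 each. In mice 1 to 5 the median of 15 skeletal muscle markers was −3.52, −2.62, −0.19, −0.43 and −1.99, with 11 of them past the threshold below 0. Of 17 dividing-cell markers, 14 passed below 0, with medians between −0.82 and −0.47 by mouse, and of 13 macrophage markers 10 did, with medians between −1.22 and −0.62. Endothelial markers passed above 0 in 10 of 13 (76.9%), and alveolar and club cell markers in 10 of 17 (58.8%), against 25.6% of all genes. The shares below 0 were 73.3% of muscle, 82.4% of dividing-cell and 76.9% of macrophage markers, against 24.1% of all genes. The part of these lists in the splicing factor ratios was not tested. The Prpf group ran from a median of 0.030 in mouse 1 to 0.43 in mouse 4. The hnRNP group had its lowest median in mouse 1 (0.14) and its highest in mouse 2 (0.30), and the snRNP group its lowest in mouse 4 (−0.46) and its highest in mouse 5 (−0.17). Mouse 4 was the highest array for 34.4% of the 32 genes past the threshold above 0, and for 26% of all genes on that side.

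The 25 genes left out comprised 11 with no value on any array, among them Hnrnpu, Hnrnph1, Ddx21 and Prpf3, and 14 with values on 1 to 3 arrays. These numbers say nothing of their expression, since no source used here says why a value is missing. Around the threshold, Ddx18 (adjusted p = 0.0465) and Rbm14 (0.0452) were the last to pass, and Rbm12 (0.051) and Ddx54 (0.0566) the first that did not. Besides Srsf6 and Dhx30, leaving out 1 mouse brought past the threshold Ddx1 and Rbm38 (mouse 1), Rbm12 (mouse 2), Ddx24 (mouse 3) and Dhx16 (mouse 4). The 48 genes that did not pass had means from −0.32 (Sf3b6) to 0.33 (Dhx16).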

How the data were processed

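Each array has 1 value per feature, a log ratio deposited by the authors and taken as log2. No source used here states its normalization, base or dyes; the deposited medians (0.011 to 0.026) show values already centred near 0. Arrays held values for 11350 to 12083 of 17280 features. Features on at least 4 of 5 arrays were kept (10702), each array was centred on its median, and features of 1 symbol were averaged, which gave 10081 genes and unnamed features. Symbols came from the platform's annotation (14722 features with 1 symbol, 1 with several and 2557 with none), updated through gene identifiers with RefSeq GRCm38.p6.

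Each mean was set against 0 by limma 3.58.1 under R 4.3.3 (two-sided, empirical Bayes, Benjamini-Hochberg over all 10081). The procedure was also run on simulated data, in which 200 of 10081 genes differed and noise was independent between arrays. There 5.56% of the calls were false. In the data 49.7% of all genes passed, so the simulated setting differs and 5.56% cannot be read as the false share of the real calls. The simulation held no shared pool error or dye bias, so it cannot measure false calls from either. The pool's own spread is left out, dye bias does not cancel without a dye swap, and the smallest p of an exact sign-flip test over 5 arrays is 0.0625. Precision is limited by the 5 arrays. In the wider-error test the pool has the error of 1 mouse. Pairs of arrays correlated across genes at Pearson's r from 0.732 to 0.857 and share the pool.

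Members and lists were chosen with earlier results of these data known. Named genes are, per group and side, up to 3 farthest from 0 among those past the threshold with every measured array on that side, a fixed list of 20 well-known members where measured, and members with features past the threshold on both sides or with 1 array far from the others; further genes, among them Hnrnpul1, Hnrnpl, Hnrnpr, Hnrnpdl, Snrpa1, Prpf40b, Ddx10, Ddx28, Rbm4b, Rbm14, Rbm17 and those that did not pass, were named after their values were seen. Genes of the pathway lists given as examples were also chosen so. Alternatives left out each mouse, or changed the array minimum, centring, scaling, pool, required size, variance prior or the averaging of features.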

Additional observations from a re-analysis of the deposited data

Results flagged for a closer look

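Within 9 of the 98 genes 1 mouse lay far from the others by Dixon's test, which flags about 1 gene in 20 by chance. The share over all genes tested was not computed, so the 9 cannot be read as a trait of these genes. Mouse 1 was that mouse for Hnrnpd (−1.50, the others between −0.92 and −0.68), Prpf8 (1.25, the others between 0.87 and 0.98), Rbm19 (−0.72, the others between −0.17 and −0.087), Sf3b5 (−0.32, the others between −0.17 and −0.13) and Dhx33 (0.26, the others between −0.047 and 0.021). Mouse 4 was it for Srsf5 (1.43, the others between 0.68 and 0.81) and Ddx18 (0.38, the others between 0.14 and 0.15, on 4 arrays). Mouse 5 was it for Sf3b6 (−1.10, the others between −0.18 and −0.054) and Dhx30 (0.17, the others between −0.20 and −0.14). Rbm19, Dhx33, Sf3b6 and Dhx30 were not past the threshold.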

How the results depend on the processing

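No paired analysis was possible because the labels give a single group. Leaving out each mouse gave 16 to 18 of the 98 genes below 0 and 26 to 29 above 0 (all genes 1981 to 2203 and 2134 to 2404) and medians of the 98 from 0.049 to 0.069. In the wider-error test, 0 and 5 passed (all genes 210 and 289; 26 of the 98 at an unadjusted p under 0.05). With at least 1.2-fold required, 7 and 14 passed (all genes 822 and 1033). The median was 0.071 with features on all 5 arrays, 0.074 without centring, 0.065 with quantile normalization and 0.065 with 1 feature per symbol. Among the 50 genes named by the rule, means turned for Dhx30 with 1 feature per symbol (0.23), Dhx33 without mouse 1 (−0.0088, up to 0.068 without another mouse) and Hnrnpa2b1 without mouse 4 (−0.032, up to 0.17); none was past the threshold in the main setting. Means of uncalled genes outside the rule also turned, and no called mean did.

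For the pathway lists, calls below and above 0 were 1 and 0 (other spliceosome), 0 and 2 (other regulators), 0 and 1 (kinases), 0 and 1 (exon junction) and 0 and 1 (3′ end) in the wider-error test, and 4 and 4, 1 and 4, 0 and 2, 0 and 5, and 0 and 3 with 1.2-fold required. Leaving out a mouse gave 10 to 13 and 8 to 11, 5 to 6 and 9 to 11, 0 and 3 to 5, 0 and 6 to 8, and 0 to 2 and 4 to 5. The 3′ end list had 2 calls below 0 with features on all 5 arrays, with quantile normalization, with 1 feature per symbol and with arrays centred on all deposited values, the last chosen after seeing the data. Of the 50 calls among the 98 genes, 5 held in all 14 alternatives. The causes were not tested.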
